A study of Homo sapiens with 6 samples.

Results

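Keratins are the intermediate filament proteins of epithelia and of hair. Keratin-associated proteins (KRTAPs) are small proteins, many of them sulfur-rich, that crosslink keratins in the hair shaft. The set described here holds every protein-coding gene of the deposited table whose symbol is a keratin or KRTAP symbol: 149 of 58825 genes, of which 94 are KRTAPs, 18 type I epithelial keratins, 20 type II epithelial keratins, 11 type I hair keratins and 6 type II hair keratins. The libraries are poly(A) RNA-seq of 143B, a human osteosarcoma line grown in serum, collected 36 h after transfection of 80 nmol/L siRNA. In 3 libraries the siRNA was a negative control and in the other 3 it targeted SIGLEC15, a sialic acid-binding receptor. All 6 libraries thus share the line, the transfection and the dose. Whether replicates are independent cultures is not stated in the labels. A p-value here therefore reflects variation among 6 libraries, part or all of which may be technical.

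A keratin filament is built from heterodimers of 1 acidic type I chain and 1 basic type II chain, and the chains are made in fixed pairs. KRT18 pairs with KRT8 in simple epithelia such as gut and liver. Other pairs mark the layers of stratified epithelium and of the hair follicle, and the genes sit in clusters, type I mostly on chromosome 17 and type II on chromosome 12. Mesenchymal cells fill this role mainly with vimentin, but cultured tumor lines of mesenchymal origin often also carry KRT8 and KRT18.

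In these cells the keratin transcripts were KRT18 and KRT8 with a short tail of other members, and 117 of the 149 genes (78.5%) had no count in any library, against 50.6% of all genes and 19.6% of protein-coding genes. With the SIGLEC15 siRNA, 3 members fell: KRTAP2-3 by 12.1-fold from a low level, KRT80 by 2.37-fold and KRT75 by 2.09-fold. Each of these calls was lost when both libraries that stand apart from the rest were left out (edgeR adjusted p = 0.118, 0.0938 and 0.111), at log2 fold changes of -3.42, -1.35 and -1.18. KRT18 and KRT8 themselves showed log2 fold changes of 0.04 (95% interval -0.20 to 0.27) and -0.04 (95% interval -0.20 to 0.12). No member rose.

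Libraries held between 57966691 and 67655254 counts. On the second principal component of log2 CPM (20.2% of the variance) the scores of control replicate 3 (56.32) and of replicate 1 of the SIGLEC15 siRNA (35.31) were positive and those of the 4 remaining libraries negative (-27.15 to -20.36), while the first component (26.8%) separated the groups. SIGLEC15 itself was near the detection limit, with 12, 10 and 22 counts in the control libraries and 12, 8 and 6 in the SIGLEC15 siRNA libraries. Its log2 fold change of -0.82 (SE 0.598) did not pass (edgeR adjusted p = 0.529), so the labels were not checked by a lower target, and "SIGLEC15 siRNA" names the label only.

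Of the 149 members 14 had enough counts to be tested, 18 had counts under the filter and 117 had none. A gene was tested when at least 3 libraries reached the CPM that 10 counts give in the median library, 0.162 CPM (counts scaled for library size). Of the 14 tested members 3 fell and 0 rose at an edgeR adjusted p under 0.05, where 4.65% of all 18910 tested genes changed, 2.43% lower and 2.22% higher. At an unadjusted p under 0.05 there were 6 members, all lower, against a background of 19.1% of tested genes. In 7 of the 14 the values of the groups did not overlap, against 26.6% of tested genes. The median log2 fold change was -0.67 over the 14 members and -0.01 over all tested genes. These counts and the median depend on the filter, are not those of all members and do not show a fall of the whole set. Of the 14, 5 reached the filter in all 3 control libraries but not in all 3 SIGLEC15 siRNA libraries, and 0 the other way round. These 5 are KRTAP2-3, KRTAP4-7, KRTAP4-9, KRT34 and KRT222. The other 9 reached it in all 6 libraries, and 2 of the called members, KRT80 and KRT75, are among these. The uncalled members among these 9 had log2 fold changes from -0.41 (KRT15) to 0.24 (KRT79).

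**Figure D1:**
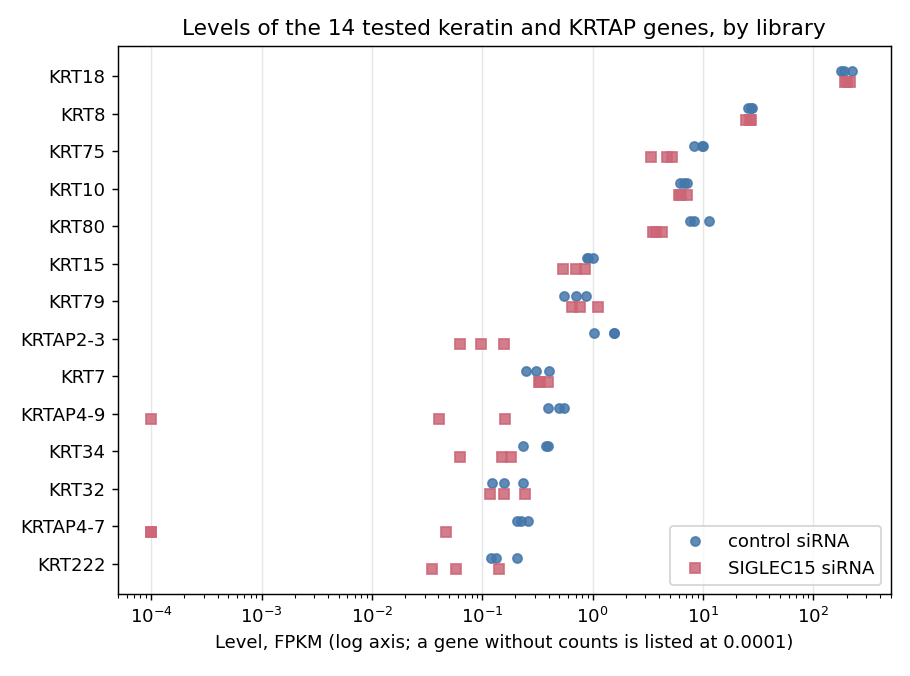
Level of each of the 14 tested members in each of the 6 libraries, in FPKM on a log axis, circles for control siRNA and squares for SIGLEC15 siRNA. KRT18 lies between 179 and 223 FPKM and KRT8 between 24.4 and 27.6, 3 members (KRT75, KRT10 and KRT80) lie between 3.4 and 11.4, and the rest lie at or below 1.57; squares at 0.0001 are libraries without a count.

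KRT18, the type I chain of simple epithelia (ENSG00000111057, chromosome 12, 52948871 to 52952900, plus strand, coordinates as in the deposited table), was the most abundant member. Its level in FPKM (fragments scaled for transcript length and library depth) was 191, 179 and 223 in the control libraries and 213, 201 and 194 in the SIGLEC15 siRNA libraries, which is rank 175 among all genes. The groups overlapped and the means, 197 ± 22.9 and 203 ± 9.43 FPKM (SD, n = 3 each), differed by less than the spread (edgeR adjusted p = 0.894). Its partner KRT8, the type II chain (ENSG00000170421, chromosome 12, 52897187 to 52949920, minus strand), stood at 25.7, 27.3 and 27.6 FPKM in the control libraries and at 26.7, 27.2 and 24.4 in the others. These groups overlapped as well (edgeR adjusted p = 0.802).

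The KRT8 and KRT18 genes point away from each other and their ends overlap by the table's coordinates. The KRT18 to KRT8 ratio was 7.35 ± 0.763 over FPKM in control libraries and 7.78 ± 0.333 after SIGLEC15 siRNA (SD, n = 3 each), with overlapping values. Over counts it was 3.28 ± 0.34 and 3.47 ± 0.149. The scales differ because the deposited counts and FPKM imply a length of 8.19 kb for KRT8 and 3.65 kb for KRT18, so the FPKM ratio depends on the transcript models used. Of 100-base windows of KRT18 transcripts 8.39% also occur, on either strand, in a transcript of KRT8. Processed pseudogenes of both genes had counts too: 31 of 67 KRT18 pseudogenes, summing to at most 0.5% of the KRT18 counts in a library, and 21 of 50 KRT8 pseudogenes, summing to 5.04% to 6.36% of the KRT8 counts. None of the 13 tested pseudogenes (6 and 7) was called.

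Together KRT18 and KRT8 made up 88% ± 1.57 of the summed FPKM of all members in control libraries and 92.9% ± 0.332 after SIGLEC15 siRNA (SD, n = 3 each). Their share was higher in each SIGLEC15 siRNA library (92.6% to 93.3%) than in any control library (86.7% to 89.7%). The summed FPKM of type II epithelial keratins was 46.4 ± 1.52 and 35.6 ± 2.91, and that of type I epithelial keratins 205 ± 22.5 and 210 ± 10.1 (SD, n = 3 each). These shares and sums are descriptions, and both the share of KRT18 and KRT8 and the type II sum moved with KRT80 and KRT75. Vimentin (VIM) stood at 2.09 to 2.65 times the KRT18 level in FPKM in the 6 libraries, a ratio that also depends on the transcript models used.

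KRT80 (ENSG00000167767, chromosome 12, 52168996 to 52192014, minus strand) is a type II keratin of differentiating epithelia. It had 42.4, 59.3 and 39.9 CPM in the control libraries and 19.8, 21.6 and 18.4 CPM in the SIGLEC15 siRNA libraries. The groups did not overlap, and control replicate 2 was the highest of all. The log2 fold change was -1.24 (SE 0.167, 95% interval -1.64 to -0.85, edgeR adjusted p = 0.0126). None of its 100-base windows occurs in another gene. Its call ended without SIGLEC15 siRNA replicate 1, 2 or 3 (edgeR adjusted p = 0.0519, 0.0545 and 0.0517), at log2 fold changes between -1.31 and -1.19. Those fits called 266 to 431 genes in all, against 879 with all 6 libraries.

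KRT75 (ENSG00000170454, chromosome 12, 52424070 to 52434371, minus strand) encodes the type II keratin of the companion layer of the hair follicle. Its CPM was 25.8, 21.4 and 25.4 in the control libraries and 13.9, 12 and 8.84 in the SIGLEC15 siRNA libraries, with no overlap. The log2 fold change was -1.06 (SE 0.182, 95% interval -1.50 to -0.63, edgeR adjusted p = 0.0258). KRT75 lies 232 kb from KRT80 in the type II cluster, and KRT7, which lies 40.5 kb from KRT80, did not pass (log2 fold change 0.15). An antisense transcript, AC055736, shares 5.71% of the KRT75 windows and had 9 counts in all. The KRT75 call ended without control replicate 1, 2 or 3 (edgeR adjusted p = 0.0922, 0.0686 and 0.085) or SIGLEC15 siRNA replicate 2 (0.0991). Its log2 fold changes in these fits lay between -1.15 and -1.02. The same fits called 260 to 342 genes in all, against 879 with all 6 libraries.

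**Figure D2:**
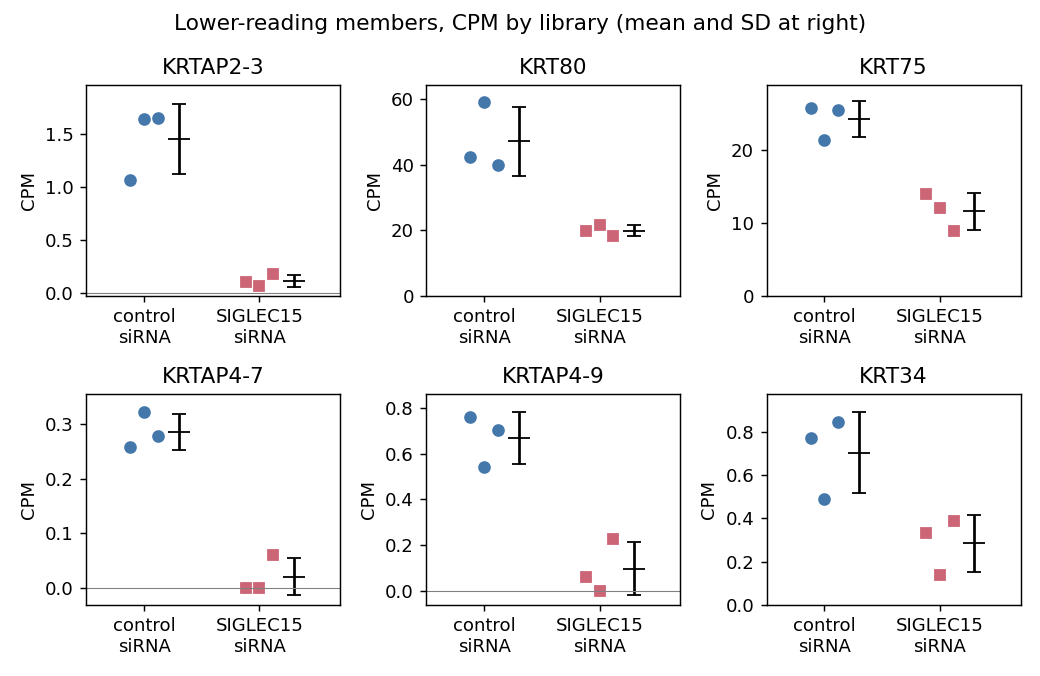
CPM of 6 members in each library, one panel a gene with its own axis from 0, and the mean with its SD to the right of each group. In all 6 panels the circles (control siRNA) lie above the squares (SIGLEC15 siRNA); KRTAP2-3, KRT80 and KRT75 passed the test and KRTAP4-7, KRTAP4-9 and KRT34 did not.

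The other epithelial keratins tested did not pass. KRT10, the type I keratin of the suprabasal epidermis, was at 16.8 ± 1.84 CPM with the SIGLEC15 siRNA and 17.3 ± 1.17 CPM in the control group (SD, n = 3 each; log2 fold change -0.04, 95% interval -0.32 to 0.24). KRT15, a type I keratin of basal epithelial cells, had 6.25, 6.45 and 7.26 CPM in the control libraries and 6.17, 4.96 and 3.91 in the SIGLEC15 siRNA libraries. These values do not overlap, but SIGLEC15 siRNA replicate 1 lies next to the control libraries, and the log2 fold change of -0.41 (95% interval -0.87 to 0.05) did not pass (edgeR adjusted p = 0.32). KRT79, a type II keratin of the follicle and its sebaceous duct, stood at 2.18 ± 0.458 and 2.57 ± 0.69 CPM, and KRT7, a type II keratin of simple and glandular epithelia, at 1.54 ± 0.372 and 1.71 ± 0.207 CPM (control and SIGLEC15 siRNA, SD, n = 3 each). Their intervals, -0.39 to 0.86 for KRT79 and -0.42 to 0.72 for KRT7 on the log2 scale, leave room for changes in either direction. KRT222, a keratin-like gene of the type I cluster, ranged from 0.474 to 0.775 CPM in the control libraries and from 0.136 to 0.552 CPM in the others, and 32.5% of its windows also occur in the gene AC073508.2. KRT19, a widespread type I keratin of simple epithelia, had 4, 4 and 0 counts in the control libraries and 5, 0 and 0 in the others, too few for the filter.

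Hair keratins had few counts. KRT34, a type I keratin of the hair cortex (chromosome 17, 41377650 to 41382403, minus strand), had 48, 29 and 52 counts in the control libraries and 22, 8 and 26 in the SIGLEC15 siRNA libraries. The values did not overlap, but the log2 fold change of -1.29 (SE 0.488) did not pass (edgeR adjusted p = 0.213). KRT32, of the hair cuticle, had 21, 15 and 30 counts in the control libraries and 17, 30 and 23 in the others, so its groups overlapped. Among type II hair keratins KRT86 had 60 counts and KRT81 58 counts over all 6 libraries, with values from 0 to 34 and from 0 to 27, and 28.8% of the KRT81 windows also occur in KRT86. Neither was tested.

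**Figure D3:**
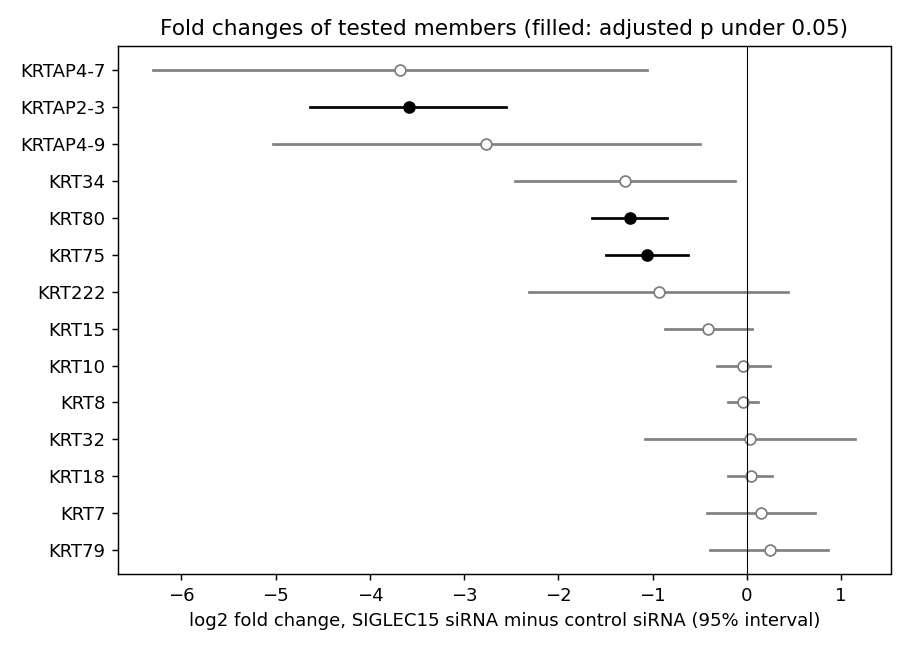
Log2 fold change of each tested member (SIGLEC15 siRNA minus control siRNA) with its 95% interval, filled where the edgeR adjusted p was under 0.05. The intervals of KRT18, KRT8 and KRT10 are narrow around 0, those of KRT80 and KRT75 lie below 0, and the weakly expressed KRTAP4-7 and KRTAP4-9 have intervals several log2 units wide.

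Among the 14 tested members the 3 KRTAPs had the lowest log2 fold changes, and none of them exceeded 1.57 FPKM in a library. All 3 reached the filter in every control library but not in every SIGLEC15 siRNA library, so this rank depends on the filter. In all 94 KRTAP genes the longest protein-coding transcript of GENCODE 29 has 1 exon, and 83 of the genes had no count, including all 49 on chromosome 21. The 34 KRTAP genes on chromosome 17 lie between 40993430 and 41315695, inside the type I keratin cluster, and 9 of them had counts. KRTAP2-3 (ENSG00000212724, 41059240 to 41060114, minus strand), a high-sulfur protein gene, had 66, 97 and 101 counts in the control libraries and 7, 4 and 12 in the SIGLEC15 siRNA libraries. In CPM that was 1.45 ± 0.335 against 0.118 ± 0.0564 (SD, n = 3 each), with every control library several-fold above every SIGLEC15 siRNA library. The log2 fold change was -3.59 (SE 0.434, 95% interval -4.63 to -2.56, edgeR adjusted p = 0.00869).

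KRTAP4-7 (41084150 to 41085141, plus strand) and KRTAP4-9 (41105332 to 41106488, plus strand) encode ultra-high-sulfur proteins. KRTAP4-7 lies 24 kb from KRTAP2-3, and KRTAP4-9 lies 20.2 kb beyond KRTAP4-7. KRTAP4-7 had 16, 19 and 17 counts in the control libraries and 0, 0 and 4 in the SIGLEC15 siRNA libraries. KRTAP4-9 had 47, 32 and 43 counts against 4, 0 and 15. In both genes all control libraries lay above all SIGLEC15 siRNA libraries, yet neither passed (edgeR adjusted p = 0.128 and 0.175, log2 fold changes -3.68, SE 1.1, and -2.77, SE 0.952). Both were called by limma-trend on log2(FPKM + 1) (adjusted p = 0.0453 and 0.0324), which called 5 of 14 members and 4.09% of the 19011 genes it tested. On log2(FPKM + 0.1) limma-trend called KRTAP4-7 (adjusted p = 0.0472) but not KRTAP4-9 (0.0563). DESeq2, which called 17.1% of the 17043 genes it gave an adjusted p, called KRTAP4-9 (adjusted p = 0.00444) beside KRTAP2-3, KRT80 and KRT75, and gave no adjusted p for KRTAP4-7. Over the settings besides the main fit, KRTAP4-7 passed in 2 of 12 and KRTAP4-9 in 2 of 13.

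The remaining KRTAPs of this cluster had at most 8 counts in a library. KRTAP4-8 had 8, 4 and 8 counts in the control libraries and 0 in each SIGLEC15 siRNA library. Its control mean in CPM was 2.32 times a floor of 3 counts per SIGLEC15 siRNA library. KRTAP2-4, 5 kb from KRTAP2-3, had 8, 4 and 2 counts against 0 in each, with a control mean 1.63 times the same floor. KRTAP1-5, KRTAP2-1, KRTAP2-2 and KRTAP4-16 had counts in the control libraries only (8, 9, 1 and 4 in all). The control mean of KRTAP2-1 was 1.04 times that floor, and those of the others were at or under it. These genes did not reach the filter. Values of 4, 8 or 12 make up 39.2% of all table values from 1 to 12, where an even spread over these values gives 25%. Counting error alone thus does not describe the lowest counts, and the multiples of the floor are not lower bounds of a change.

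KRTAP genes of a family share sequence. Of the KRTAP2-3 windows 34% also occur in KRTAP2-4, and of the KRTAP4-9 windows 6.94% occur in other genes, against 0% for KRTAP4-7. The split of counts within the KRTAP2 family is therefore uncertain. Windows count exact matches only, so misplaced reads between near-identical KRTAP4 genes were not measured. Summed over the 4 KRTAP2 genes the counts were 83, 102 and 103 in the control libraries and 7, 4 and 12 in the SIGLEC15 siRNA libraries. Summed over the 12 KRTAP4 genes they were 71, 59 and 68 against 4, 0 and 19. KRTAP genes outside chromosome 17 had 6 counts in the control group and 8 in the SIGLEC15 siRNA group, all in the KRTAP5 family on chromosome 11, so they give no measure of their own.

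**Figure D4:**
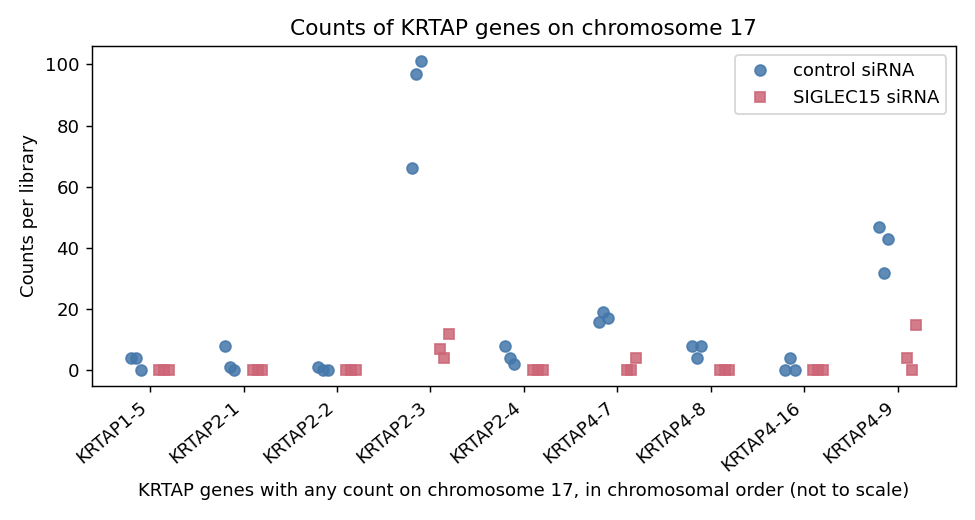
Counts per library of the 9 KRTAP genes on chromosome 17 that had any count, in their order along the chromosome and not to scale, circles for control siRNA and squares for SIGLEC15 siRNA. KRTAP2-3, KRTAP4-7 and KRTAP4-9 carry nearly all counts, and in each of these the highest square lies below the lowest circle.

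The promoters of 4 members that were lower with the SIGLEC15 siRNA in every library are printed, since 3 of them lie close together in the KRTAP cluster. Each is the RefSeq window of GRCh38.p14 from 250 bases before to 50 bases after the start site, on the gene's strand, 5′ to 3′, with matches to the searched motifs in capitals. Of the 149 members 114 were matched by symbol, and KRT80 was not. The windows are chr17:41060065-41060364 (minus strand) for KRTAP2-3, chr17:41083900-41084199 (plus strand) for KRTAP4-7, chr17:41105139-41105438 (plus strand) for KRTAP4-9 and chr12:52434322-52434621 (minus strand) for KRT75.
KRTAP2-3: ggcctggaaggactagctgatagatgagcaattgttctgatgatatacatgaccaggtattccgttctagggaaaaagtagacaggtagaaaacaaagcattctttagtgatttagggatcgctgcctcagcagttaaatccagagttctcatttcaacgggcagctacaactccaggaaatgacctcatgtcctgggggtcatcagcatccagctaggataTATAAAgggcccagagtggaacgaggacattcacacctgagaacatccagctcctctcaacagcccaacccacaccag
KRTAP4-7: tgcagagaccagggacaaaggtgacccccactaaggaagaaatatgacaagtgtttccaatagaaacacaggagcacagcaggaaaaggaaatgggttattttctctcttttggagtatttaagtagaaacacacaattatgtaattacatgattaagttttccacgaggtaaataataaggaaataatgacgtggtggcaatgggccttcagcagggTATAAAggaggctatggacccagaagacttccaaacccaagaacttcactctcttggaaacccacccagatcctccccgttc
KRTAP4-9: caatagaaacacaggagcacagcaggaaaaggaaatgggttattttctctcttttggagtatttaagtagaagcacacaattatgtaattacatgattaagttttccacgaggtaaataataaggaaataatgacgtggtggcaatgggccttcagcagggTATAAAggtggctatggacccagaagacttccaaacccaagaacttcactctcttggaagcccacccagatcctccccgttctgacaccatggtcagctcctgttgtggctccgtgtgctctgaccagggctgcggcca
KRT75: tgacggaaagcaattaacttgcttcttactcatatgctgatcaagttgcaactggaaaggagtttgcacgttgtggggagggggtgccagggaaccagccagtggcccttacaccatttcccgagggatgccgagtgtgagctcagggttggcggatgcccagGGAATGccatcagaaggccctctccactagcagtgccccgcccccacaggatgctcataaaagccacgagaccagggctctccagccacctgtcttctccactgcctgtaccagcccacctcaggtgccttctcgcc

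The motifs were searched on both strands. The TATA motif was spelled TATAAA, as in the core promoter box that sets the start of transcription. The AP-1 motif, bound by FOS and JUN proteins, was spelled TGANTCA. The TEAD motif, bound by the factors at the end of the Hippo pathway, was spelled GGAATG. No 2 of these overlap here, and each of the 4 windows holds 1 match to them in all. The TATA motif stands 28 bases before the start in KRTAP2-3, 32 before it in KRTAP4-7 and 89 before it in KRTAP4-9. The KRTAP4-7 and KRTAP4-9 windows match at 240 of 243 bases (98.8%) when shifted by 57 bases, so the TATA motif lies in the same stretch of both and the annotated starts differ. The RefSeq start of KRTAP4-9 lies inside the gene as the deposited table places it (from 41105332). That of KRTAP4-7 is the start in the deposited table. KRTAP2-3 matched them at no more than 39.3% of bases at the best shift tried. The KRT75 window has the TEAD motif 87 bases before the start and no TATA motif. The AP-1 motif is in none of the 4 windows, and it is in 7.71% of 35116 windows of all genes.

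The TATA motif was frequent in the families as a whole, in 84 of 114 member windows against 11.5% of all windows. It was in 64 of 80 KRTAP windows (80%), in 8 of 11 type I hair keratin windows (72.7%) and in 4 of 11 type II epithelial keratin windows (36.4%). The TEAD motif was in 15 of 114 member windows, against 14% of all. The windows of a family share ancestry and sequence and are not independent, so these are descriptions of the sequences. Most of the KRTAP genes whose windows hold the TATA motif had no count in these cells.

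Of the members under the filter the 4 with most counts were KRT86, KRT81, KRT6B and KRT27. KRT6B, a type II keratin of activated keratinocytes, had 13, 18 and 7 counts in the control libraries and 0, 0 and 10 in the others, and 24% of its windows occur in KRT6C. KRT27, of the inner root sheath, had 28 counts in all. KRT4, KRT13, KRT39 and KRT78 had counts with the SIGLEC15 siRNA only, at most 8 in a library. None of these members reached the filter. Without a filter 32 members were tested, and only KRTAP2-3, KRT80 and KRT75 were called, among 633 of 29060 genes in all. At such low counts a missing call says little about a change.

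Genes that work with keratins were taken from 6 lists of related function, which were chosen with earlier results of these data known. Over these lists 81 genes were tested and 4 changed, beside the background of 4.65%. Of 11 tested genes of other intermediate filaments 1 rose, 0 fell and 10 did not pass (median log2 fold change 0.02). The one that rose was SYNM, synemin, which joins desmin and vimentin filaments, from 76.2, 77 and 69.8 CPM in the control libraries to 123, 136 and 139 CPM in the SIGLEC15 siRNA libraries. Its groups were far apart (log2 fold change 0.83, SE 0.0755, edgeR adjusted p = 0.00402). VIM, the gene of this list with the highest level in FPKM, had a log2 fold change of -0.14 and did not pass (edgeR adjusted p = 0.247).

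Of 14 tested genes of desmosomes and filament linkers, which anchor keratin filaments at cell contacts, 0 passed (median log2 fold change 0.07). Desmoplakin (DSP) stood at 4.16 FPKM in both groups, while DSG1, DSG3, DSC1 and DSC3, the desmosomal cadherins of epidermis, had no count. PLEC, the linker plectin, had 323, 193 and 234 CPM in the control libraries and 103, 177 and 84.9 CPM in the others. These values did not overlap, but the spread was wide (log2 fold change -1.04, SE 0.307, edgeR adjusted p = 0.125). Of 8 tested hemidesmosome genes 1 rose and 7 did not pass (median 0.33). It was LAMB3, a chain of the laminin that anchors basal keratinocytes, by 1.33-fold (edgeR adjusted p = 0.0289), and its call was lost in 8 of 14 other settings.

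The table holds 54 epidermal differentiation genes, of which 38 had no count and 6 were tested, of which 1 fell and 5 did not pass (median log2 fold change -0.32). PRR9, a gene of the epidermal differentiation cluster on chromosome 1, went from 147, 113 and 131 counts in the control libraries to 38, 26 and 26 in the SIGLEC15 siRNA libraries, a fall of 4.56-fold (edgeR adjusted p = 0.00729). This call was lost with both libraries that stand apart left out (edgeR adjusted p = 0.0782, log2 fold change -2.37). The 2 most abundant genes of this list, S100A16 and S100A2, did not pass. Of 21 tested regulators of keratin genes 0 passed (median -0.15). HOXC13, a regulator of hair keratin and KRTAP genes, had a log2 fold change of -0.48 (edgeR adjusted p = 0.0661), KLF4 one of -0.40 (0.071) and GRHL3 one of 1.97 (0.0648). Of 21 tested partners, chaperones and turnover factors 1 rose and 20 did not pass (median 0.05). TRIM16, a ubiquitin ligase studied in keratinocytes, went from 16.3, 15.9 and 20 CPM in the control libraries to 28.8, 36.4 and 33 CPM in the SIGLEC15 siRNA libraries. These values do not overlap (1.88-fold higher, log2 fold change 0.91, SE 0.137, edgeR adjusted p = 0.0174), and the call was lost in 6 of 14 other settings.

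**Figure D5:**
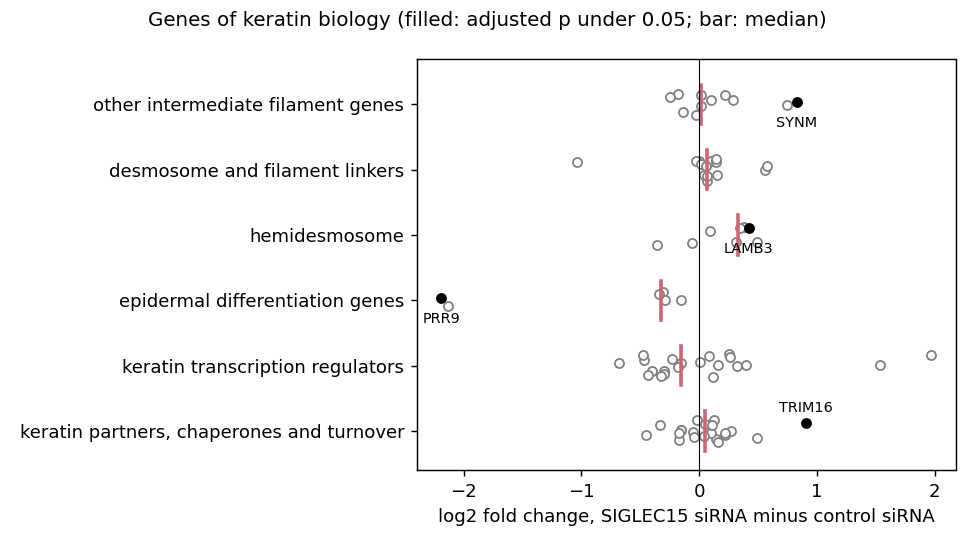
Log2 fold change of each tested gene in 6 lists of keratin biology (SIGLEC15 siRNA minus control siRNA), with the list's median as a bar and genes at an edgeR adjusted p under 0.05 filled and named. SYNM, LAMB3 and TRIM16 lie above 0 and PRR9 below; vertical scatter within a list only separates the points.

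Epithelial identity was not general in these libraries. Of 12 markers of simple epithelium 1, EPCAM, had a mean of at least 1 FPKM and 4 had no count, among them the adhesion protein CDH1, and their summed FPKM was 4.95 to 5.67 in the control libraries and 4.82 to 5.14 in the others. Of 11 keratinocyte markers 1, SFN, reached 1 FPKM and 5 had no count (sums 1.93 to 2.6 and 2.21 to 2.73). Of 9 hair follicle markers 3 reached 1 FPKM and 2, FOXN1 and DSG4, had no count (10.4 to 11.8 and 11.1 to 13.3). None of the tested markers of these 3 lists was called. Of 12 mesenchymal markers 10 reached 1 FPKM, THY1 had no count, and the sums were 560 to 601 FPKM in the control libraries and 505 to 554 FPKM in the others. Of the 11 tested, 1 was called higher (ENG, log2 fold change 0.40, edgeR adjusted p = 0.0441), 0 lower and 10 did not pass. Of 8 immune markers 1, CD68, reached 1 FPKM and 3 had no count (17.4 to 22.9 and 12.3 to 19.3).

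Of 10 osteoblast and osteosarcoma markers 4 reached 1 FPKM (SPARC, SPP1, DLX5 and COL1A1). IBSP had no count, and ALPL, BGLAP and COL1A2, which mark bone-forming cells, had mean levels over all libraries of 0.0492, 0.128 and 0.0044 FPKM. The summed level of this list was 82.4 to 86 FPKM in the control libraries and 129 to 132 FPKM in the others, with SPARC and COL1A1 called higher, so this sum moved with the groups. Its part in the keratin results was not tested.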

How the data were processed

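The authors deposited 1 table that holds, for each gene and library, a whole-number count and an FPKM value (per the file headers). HISAT, StringTie and edgeR are the tools that the submitters' processing notes list. For genome build, strand use and the counting step, nothing is given in the sources used here. Genes without counts (29765) are listed at 0.0001 FPKM. Of the 149 members all are in GENCODE 29 (GRCh38), 122 with the same coordinates, and 0 columns were left without a sample.

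Counts were tested with edgeR 4.0.16 (R 4.3.3): filterByExpr (minimum count 10, minimum total 15), TMM scaling, quasi-likelihood F test over all 6 libraries without covariate, Benjamini-Hochberg adjustment over all tested genes, threshold 0.05. CPM uses TMM-scaled library sizes. Each standard error was derived from the F statistic (fold change on the log2 scale over its root), and 95% intervals from its t quantile. Library totals were 57966691 to 67655254 counts, and floors of 3 counts cover counting error only. The fit was tested on simulated data. Alternatives were DESeq2 1.42.0, limma-trend (limma 3.58.1) on log2(FPKM + 1) and log2(FPKM + 0.1) at a mean of at least 0.1 FPKM, median-of-ratios scaling, other filters, a replicate block and each library left out.

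Members and lists were chosen with earlier results of these data known; 2 genes of these lists are not reported here and are left out of the list counts. Named were all tested members, the 4 most counted below the filter, KRTAPs with counts within 50 kb of a called member, and called genes of each list; other genes are named for their role, after their values were seen. Shared windows are 100-base runs of GENCODE 29 transcripts.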

Additional observations from a re-analysis of the deposited data

How the results depend on the processing

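The edgeR fit of all 6 libraries called 3 members (all lower) and 879 genes in all. Against these 3 members, limma-trend with a pseudocount of 1 called 5 and the replicate block called 0. Leaving out 1 library called 1 to 2 members and 260 to 431 genes in all, with 1 library fewer in the fit. With both libraries that lie apart on the second component left out, an alternative chosen after seeing the data with 2 libraries a group, 0 members were called (KRTAP2-3, KRT80 and KRT75 at edgeR adjusted p = 0.118, 0.0938 and 0.111) and 70 genes in all, while the log2 fold changes were -3.42, -1.35 and -1.18. The block called 50 genes in all (adjusted p = 0.0697, 0.061 and 0.112 for the same members). Deviations from the group means correlated at r = -0.0489, 0.0111 and -0.0626 between libraries of 1 number. With 3 libraries a group these values cannot show whether libraries of 1 number share a culture or batch. The labels do not state it. KRTAP2-3, KRT80 and KRT75 kept their direction in every setting run, and passed in 11 of 13, 9 of 14 and 8 of 14. On log2(FPKM + 1) the KRTAP2-3 change was -1.10, since the pseudocount shrinks folds of low genes; at a mean of at least 1 FPKM it was not tested. Against 4 called genes of the 6 related lists, DESeq2 called 19 of 81 tested. It called 17.1% of all genes it gave an adjusted p, against 4.65% in the edgeR fit of all 6 libraries. The block called 0 genes of the lists (PRR9 at adjusted p = 0.0667). Leaving out 1 library called 2 to 3, and leaving out both libraries apart called 1. The causes were not tested. Uncalled members near 0 changed sign without 1 library, with log2 fold changes over these settings of -0.04 to 0.14 for KRT18, -0.08 to 0.00 for KRT8, -0.13 to 0.03 for KRT10 and -0.27 to 0.31 for KRT32. SIGLEC15 did not pass in any edgeR setting run.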
